A study of Mus musculus with 8 samples.

Results

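MHC class I molecules display peptides of a cell's own proteins at its surface, and the genes that make and load those peptides are described here in mouse samples with a mutant Bmpr2, the type II receptor for bone morphogenetic proteins. The members were taken by name, as 10 listed class I presentation genes out of 49671 gene rows in the count tables, and all 10 were among the 14887 genes with enough counts to test. They are the immunoproteasome subunits Psmb8, Psmb9 and Psmb10, the peptide transporter chains Tap1 and Tap2, the loading factor Tapbp, the light chain B2m, the heavy chains H2-K1 and H2-D1, and the transcriptional activator Nlrc5. Polyadenylated RNA of 8 samples labelled adipocytes was sequenced, 4 labelled BMPR2 DELX, from Bmpr2 mutant mice, and 4 labelled ROSA, their controls. The labels give no strain, age, sex, promoter or other allele for either group, nor whether 1 animal gave 1 sample. A p-value therefore sets a difference only against the spread among samples, which may not be a spread among animals.

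Proteins in the cytosol are cut by the proteasome, whose core particle has 3 kinds of catalytic subunit. Interferons induce an alternative set of these subunits, and the core particle that holds them is called the immunoproteasome. The Tap1 and Tap2 chains together carry the peptides into the endoplasmic reticulum, where tapasin, the product of Tapbp, helps to place them on a heavy chain paired with beta-2 microglobulin, the product of B2m. Nlrc5 is a class I transactivator, and STAT and IRF factors act downstream of the interferon receptors. Most nucleated cells, fibroblasts and endothelial cells included, express class I genes at a basal level.

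Bmpr2 itself had 199 to 237 CPM in BMPR2 DELX against 183 to 216 CPM in ROSA, scaled as below, with a log2 fold change of 0.10 ± 0.08 (SE, edgeR adjusted p 0.47), and gene-level counts do not show whether part of the transcript is missing. The libraries held between 28799445 and 43684785 gene counts. Where a gene has 0 counts, counting error alone leaves room for 3, which is 0.0687 to 0.104 counts per mega-count (CPM). The adipocyte label was only partly borne out, since 7 of 12 adipocyte markers stayed under 1 CPM in all libraries and Adipoq, the adiponectin gene, had at most 0.178 CPM. The adipocyte markers summed to 302 to 364 CPM in BMPR2 DELX against 253 to 284 CPM in ROSA, without overlap, and 1 of 5 tested was called higher, Lpl. Only 3 of these 5 had a positive log2 fold change, with a range of -0.29 to 0.58. Fibroblast markers summed to 10603 to 15511 CPM in BMPR2 DELX against 9801 to 12058 CPM in ROSA, with 2 of 9 tested called higher, Col3a1 and Fbln1. Of those 9, 7 had a positive log2 fold change, with a range of -0.55 to 1.25. Of 6 tested epithelial markers 1 was called higher, Pax8, and 4 had an unadjusted edgeR p below 0.05. Only 4 of the 6 had a positive log2 fold change, with a range of -1.12 to 3.38 and a median of 1.06. Groups did not overlap in 1 that was lower, against 9.65% of all genes tested, and in 0 that were higher, against 8.32%. The epithelial markers summed to 22.9 to 52.7 CPM in BMPR2 DELX against 32.3 to 48.9 CPM in ROSA. Endothelial markers summed to 316 to 1409 CPM in BMPR2 DELX against 593 to 1366 CPM in ROSA, lowest in BMPR2 DELX 3 and ROSA 3. Leaving out single libraries ended the calls of Lpl in 4, Fbln1 in 2 and Pax8 in 7 of 8 fits. ROSA 1 had the highest share of reads that name no gene, 21.95% against 14.7% to 17.3% in the other libraries. In bulk samples, fewer cells of a type and less RNA per cell cannot be told apart, and the part of these cell types in the results below was not tested.

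The members moved unevenly in BMPR2 DELX. Psmb8, Psmb9, Tap1 and Tap2 rose, by 2.25-fold, 2.44-fold, 1.79-fold and 1.31-fold, and B2m fell by 16.9%. The other 5, namely Psmb10, Tapbp, H2-K1, H2-D1 and Nlrc5, did not pass the test. Of the 10 members 4 were higher, against 3.96% of all genes tested, and 1 was lower, against 5.15%, or 9.10% in either direction. With upper-quartile factors in place of trimmed mean of M values (TMM) factors, 54.8% of all called genes were higher, against 43.5%, and the count of members called stayed at 4 higher and 1 lower. Without both ROSA 1 and ROSA 2, 1 member was called, Psmb8, and without both BMPR2 DELX 3 and ROSA 3, 2 members were, Psmb8 and Tap1. In the fits without 1 library, 3 to 5 members were called. Groups did not overlap in 5 members that were higher, the 4 called higher and Psmb10, against 8.32% of all genes tested, and in 1 that was lower, B2m, against 9.65%. The median log2 fold change was 0.19 over the members and 0.005 over all genes tested. Each difference is a log2 fold change, BMPR2 DELX over ROSA, with its standard error (SE) and 4 libraries per group, calls are made at an edgeR quasi-likelihood p below 0.05 after Benjamini-Hochberg adjustment over all genes, and CPM, marker sums included, are TMM-scaled, except that CPM of single genes with too few counts to test are of unscaled totals.

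**Figure D1:**
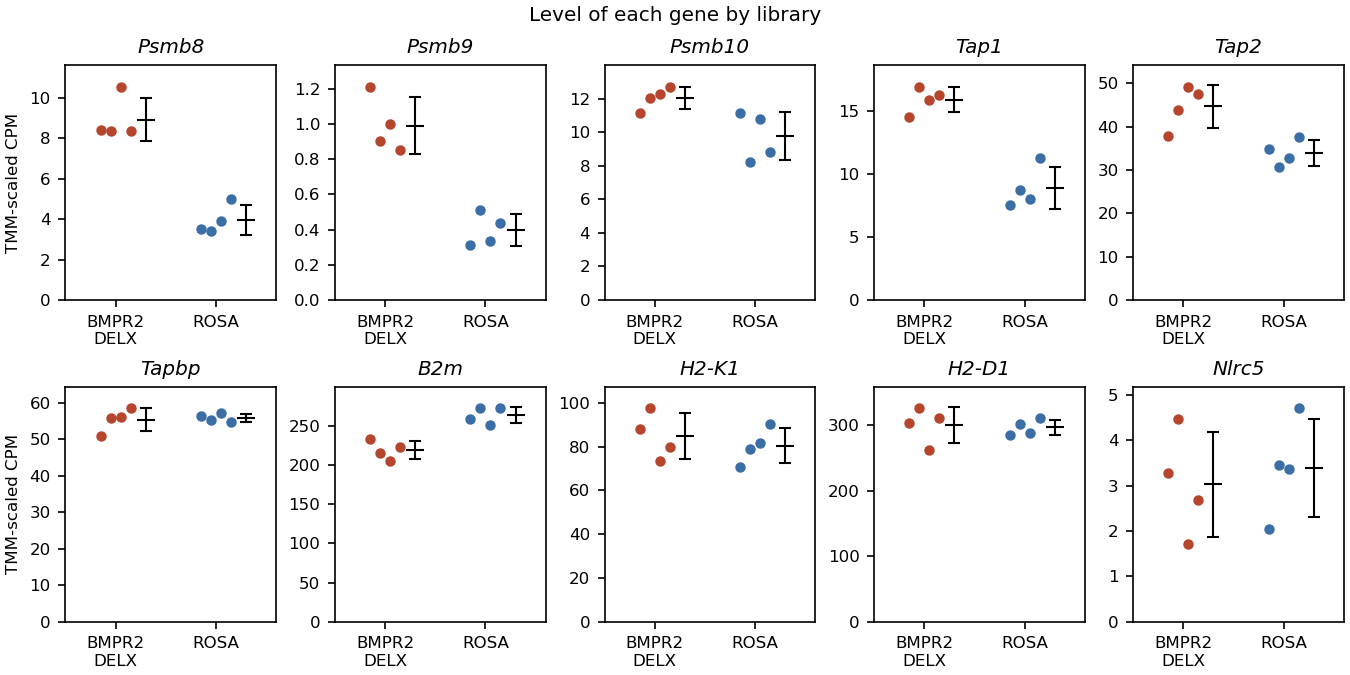
TMM-scaled CPM of each of the 10 members by library, BMPR2 DELX left of ROSA, with mean and SD over 4 libraries as a bar beside the points. Groups do not overlap for Psmb8, Psmb9, Psmb10, Tap1, Tap2 and B2m, with B2m lower in BMPR2 DELX, and they overlap for Tapbp, H2-K1, H2-D1 and Nlrc5.

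Psmb8 encodes the inducible subunit that replaces Psmb5 at the chymotrypsin-like site. It had 8.41, 8.35, 10.5 and 8.36 CPM in BMPR2 DELX 1 to 4, against 3.51, 3.40, 3.92 and 4.99 CPM in ROSA 1 to 4. Every BMPR2 DELX library lay above every ROSA library, and BMPR2 DELX 3 stood above the other BMPR2 DELX libraries, which were close together. The log2 fold change was 1.17 ± 0.15 (SE, edgeR adjusted p 0.0033), and it stayed called without each library in turn, between 1.08 and 1.30.

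Psmb9 encodes the inducible subunit that replaces Psmb6 at the caspase-like site. It had 1.21, 0.902, 0.998 and 0.849 CPM in BMPR2 DELX 1 to 4, against 0.311, 0.510, 0.333 and 0.438 CPM in ROSA 1 to 4. The groups did not overlap, and the values rest on few counts, 10 to 38 per library. Psmb9 had a log2 fold change of 1.29 ± 0.25 (SE, edgeR adjusted p 0.017) and was called without each library in turn. The call was lost without both ROSA 1 and ROSA 2 (1.36, adjusted p 0.094) and without both BMPR2 DELX 3 and ROSA 3 (1.21, adjusted p 0.071).

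Psmb10 encodes the inducible subunit that replaces Psmb7 at the trypsin-like site, and it had the smallest fold change of the 3. It had 11.2, 12.01, 12.3 and 12.7 CPM in BMPR2 DELX 1 to 4, against 11.2, 8.25, 10.8 and 8.81 CPM in ROSA 1 to 4. The lowest BMPR2 DELX library and the highest ROSA library were apart only in the third decimal. Its log2 fold change of 0.31 ± 0.12 (SE, edgeR adjusted p 0.12) did not pass, nor did it pass in any other setting tried.

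The constitutive partners of these subunits did not pass the test. Psmb5 had 31.4 ± 4.17 CPM in BMPR2 DELX against 29.99 ± 1.73 CPM in ROSA (SD, n = 4 each), Psmb6 had 96.1 ± 6.13 CPM in BMPR2 DELX against 91.5 ± 5.76 CPM in ROSA, and Psmb7 had 111.5 ± 2.02 CPM in BMPR2 DELX against 111.7 ± 5.67 CPM in ROSA. Their log2 fold changes were 0.07 ± 0.10, 0.07 ± 0.07 and -0.002 ± 0.06 (SE, edgeR adjusted p 0.71, 0.55 and 0.98). Among the 14 constitutive core subunits, 0 were called by edgeR, DESeq2 or limma voom and 0 had an unadjusted edgeR p below 0.05, against 26.3% of all genes tested. Their log2 fold changes ran from -0.09 to 0.07, and their median was 0.002, against 0.005 over all genes.

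The ratio of an inducible subunit to its constitutive partner is read within a library and does not depend on library scaling. The Psmb8 to Psmb5 count ratio was -1.81 ± 0.33 on the log2 scale in BMPR2 DELX and -2.94 ± 0.25 in ROSA (SD, n = 4 each), a difference of 1.12, or 2.18-fold. The Psmb9 to Psmb6 ratio was -6.61 ± 0.29 in BMPR2 DELX and -7.87 ± 0.32 in ROSA, a difference of 1.26, or 2.40-fold. The Psmb10 to Psmb7 ratio was -3.21 ± 0.07 in BMPR2 DELX and -3.53 ± 0.24 in ROSA, a difference of 0.32, or 1.24-fold. All 3 ratios were higher in each BMPR2 DELX library than in any ROSA library. The exact permutation test (two-sided) gave p = 0.0286 for each, 0.0286 also after adjustment over the 3 ratios, which is the smallest p that 70 splits allow. The ratios use the same counts as the fits of Psmb8, Psmb9 and Psmb10 above and are not independent of them. The groups were already apart for all 3 inducible subunits, so these p-values add no separate support. For Psmb10 to Psmb7, the lowest BMPR2 DELX library had -3.296 and the highest ROSA library -3.305. Psmb10 itself did not pass in any fit.

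**Figure D2:**
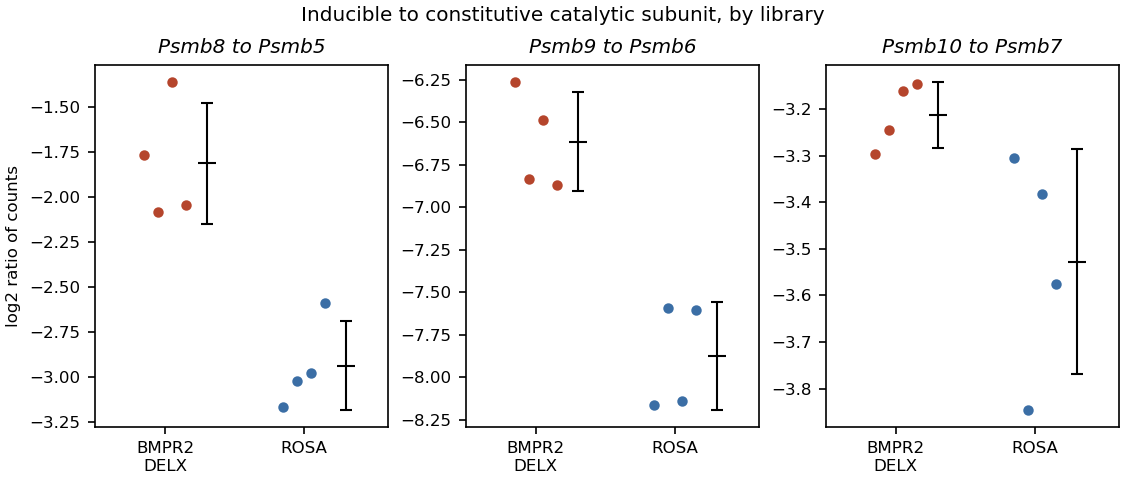
Log2 ratio of the counts of an inducible catalytic subunit to its constitutive partner in each library, BMPR2 DELX left of ROSA, with mean and SD over 4 libraries beside the points. The BMPR2 DELX libraries lie above all ROSA libraries in the 3 panels, by a narrow margin for Psmb10 to Psmb7.

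Levels of different genes were set against each other only per length, as TPM, in which a library's values share 1 sum, taken over the merged exons of each gene. Per length, Psmb8 made up 7.15% ± 1.61 of the Psmb8 and Psmb5 sum in BMPR2 DELX and 3.39% ± 0.588 in ROSA (SD, n = 4 each). The share of Psmb9 in its pair was 0.528% ± 0.108 in BMPR2 DELX and 0.222% ± 0.0483 in ROSA. The share of Psmb10 in its pair was 17.8% ± 0.716 in BMPR2 DELX and 14.9% ± 2.06 in ROSA. By these lengths, the constitutive subunit was the larger part of each pair at the transcript level in both groups. The merged exons span 3381 bases for Psmb8 against 899 for Psmb5, and 3660 for Psmb9 against 1872 for Psmb6. They include isoforms that may not be present, and an inducible subunit with a shorter transcript would have a larger share.

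The order of the members' levels per length was the same in both groups. B2m led with 956 ± 84.9 TPM in BMPR2 DELX and 1052 ± 136 TPM in ROSA (SD, n = 4 each). It was followed by H2-D1 with 437 ± 52.8 TPM in BMPR2 DELX and 395 ± 55.3 TPM in ROSA and H2-K1 with 108 ± 15.8 TPM in BMPR2 DELX and 94.6 ± 18.8 TPM in ROSA. Tapbp, at 57.2 ± 3.52 TPM in BMPR2 DELX and 52.9 ± 5.41 TPM in ROSA, and Tap2, at 44.2 ± 4.13 TPM in BMPR2 DELX and 30.9 ± 4.60 TPM in ROSA, came next. Psmb10 had 26.5 ± 1.52 TPM in BMPR2 DELX and 19.5 ± 2.29 TPM in ROSA. Tap1, at 10.9 ± 0.760 TPM in BMPR2 DELX and 5.64 ± 1.55 TPM in ROSA, and Psmb8, at 9.85 ± 0.791 TPM in BMPR2 DELX and 4.05 ± 1.09 TPM in ROSA, were neighbours whose spreads overlapped in both groups. Nlrc5, at 1.35 ± 0.531 TPM in BMPR2 DELX and 1.40 ± 0.561 TPM in ROSA, and Psmb9, at 1.01 ± 0.176 TPM in BMPR2 DELX and 0.377 ± 0.113 TPM in ROSA, were lowest, and their spreads overlapped in BMPR2 DELX. Merged exons include every annotated isoform, so these levels depend on isoforms that may not be present.

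Tap1 encodes 1 of the 2 chains of the peptide transporter. It had 14.6, 16.97, 15.9 and 16.3 CPM in BMPR2 DELX 1 to 4, against 7.55, 8.76, 8.05 and 11.3 CPM in ROSA 1 to 4. The groups did not overlap, and ROSA 4 was the nearest to BMPR2 DELX, as it was for Psmb8. The log2 fold change was 0.84 ± 0.13 (SE, edgeR adjusted p 0.0063), called without each library in turn, and the adjusted p was 0.062 without both ROSA 1 and ROSA 2 (0.74).

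Tap2 encodes the partner chain and had the smaller fold change. It had 37.9, 43.95, 49.3 and 47.6 CPM in BMPR2 DELX 1 to 4, against 34.9, 30.6, 32.9 and 37.6 CPM in ROSA 1 to 4. BMPR2 DELX 1 was just above ROSA 4, so the groups were separate by a narrow margin. The log2 fold change was 0.39 ± 0.10 (SE, edgeR adjusted p 0.033), and the call was lost in 6 of the 8 fits without 1 library, where the adjusted p ran from 0.018 to 0.094.

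The 4 members that rose are neighbours on the genome. They lie on GRCm38 chromosome 17, Psmb9 (ENSMUSG00000096727) from 34181987 to 34187764, Tap1 (ENSMUSG00000037321) from 34187553 to 34197225, Psmb8 (ENSMUSG00000024338) from 34197721 to 34201454 and Tap2 (ENSMUSG00000024339) from 34203527 to 34216321, a span of 34335 bases. Psmb9 and Tap1 are on opposite strands and overlap by 212 bases at their starts, so reads there are assigned by strand. Of the strand-assigned reads at Psmb9, 147 were on the Tap1 strand and 197 on its own, summed over the 8 libraries, and only those on its own strand were used. Within 100000 bases on either side, 7 other genes were tested, among them the class II genes H2-DMa, H2-DMb1, H2-DMb2, H2-Ab1 and H2-Eb1. Of these 7, 0 were called by edgeR, 0 by limma voom and 1 by DESeq2, and 2 had an unadjusted edgeR p below 0.05, a share near the 26.3% of all genes tested. A positive log2 fold change was seen in 6 of the 7. H2-DMb1, part of a class II peptide editor, had a log2 fold change of 0.78 ± 0.28 (SE, edgeR adjusted p 0.11). H2-DMb2 had 0.75 ± 0.32 (SE, edgeR adjusted p 0.17), and both values were larger than that of Tap2. The other members lie apart, Tapbp (33915899 to 33929292), H2-K1 (33996017 to 34000347) and H2-D1 (35262730 to 35267499) on the same chromosome, B2m on chromosome 2 (122147686 to 122153083), and Nlrc5 (94434356 to 94527272) and Psmb10 (105935735 to 105938444) on chromosome 8.

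Start-site windows are shown for members that rose and for the class I molecule genes, which were not called higher, so that their letters can be compared. They are RefSeq windows on GRCm38.p6, from 250 bases before to 50 after a start site, 5′ to 3′ on the gene's strand, and 8 of the 10 members matched one. The Tap1 window, chr17:34187306-34187605 on the plus strand, shares 275 bases with the Psmb9 window, which is read from the other strand and is not shown. The Psmb8 window is chr17:34197945-34198244 on the plus strand and lies inside the annotated gene. The B2m window is chr2:122147437-122147736 on the plus strand, 1 of 2 H2-K1 windows chr17:34000298-34000597 on the minus strand, and the H2-D1 window chr17:35262844-35263143 on the plus strand. Capitals mark, on either strand, matches to AANNGAAA (a core that IRF factors bind), GGGA then 4 bases of any kind then CC (an NF-kB form), TTCNNNGAA (a STAT form), TGACG (the core of a CREB type site, as in the X2 element of class I promoters) and CCAAT (the box bound by NF-Y), with overlapping matches joined.
Tap1: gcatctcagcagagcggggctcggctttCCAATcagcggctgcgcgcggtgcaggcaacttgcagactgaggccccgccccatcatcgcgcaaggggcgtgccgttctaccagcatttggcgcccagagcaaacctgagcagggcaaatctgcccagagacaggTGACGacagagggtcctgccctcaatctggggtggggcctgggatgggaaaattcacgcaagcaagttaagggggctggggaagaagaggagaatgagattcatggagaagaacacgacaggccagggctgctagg
Psmb8: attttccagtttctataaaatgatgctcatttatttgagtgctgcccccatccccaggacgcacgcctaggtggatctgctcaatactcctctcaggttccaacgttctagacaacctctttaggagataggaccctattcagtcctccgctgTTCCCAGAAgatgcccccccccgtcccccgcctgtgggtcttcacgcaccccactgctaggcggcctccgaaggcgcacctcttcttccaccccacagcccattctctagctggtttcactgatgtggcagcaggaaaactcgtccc
B2m: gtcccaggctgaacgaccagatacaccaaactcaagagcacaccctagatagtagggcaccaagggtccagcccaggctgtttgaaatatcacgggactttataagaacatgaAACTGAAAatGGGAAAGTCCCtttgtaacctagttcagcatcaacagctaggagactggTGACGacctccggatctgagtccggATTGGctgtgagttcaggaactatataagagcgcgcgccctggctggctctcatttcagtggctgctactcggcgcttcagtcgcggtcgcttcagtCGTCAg
H2-K1: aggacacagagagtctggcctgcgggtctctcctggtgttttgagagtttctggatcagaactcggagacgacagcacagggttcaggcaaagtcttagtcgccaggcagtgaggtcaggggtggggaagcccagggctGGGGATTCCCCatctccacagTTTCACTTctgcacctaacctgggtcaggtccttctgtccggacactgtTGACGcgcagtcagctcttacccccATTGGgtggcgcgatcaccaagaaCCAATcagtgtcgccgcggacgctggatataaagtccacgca
H2-D1: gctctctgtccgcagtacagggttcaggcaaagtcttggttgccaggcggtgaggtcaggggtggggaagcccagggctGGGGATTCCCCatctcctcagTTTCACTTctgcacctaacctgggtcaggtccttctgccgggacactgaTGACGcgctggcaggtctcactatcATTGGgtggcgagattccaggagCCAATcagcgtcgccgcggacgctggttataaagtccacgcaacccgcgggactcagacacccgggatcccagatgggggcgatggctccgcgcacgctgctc

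The windows of B2m, H2-K1 and H2-D1 each hold the IRF core and the NF-kB form close together, with a TGACG and a CCAAT nearer to the start site. The Tap1 window holds 1 TGACG and 1 CCAAT and no match to the IRF, NF-kB or STAT forms, and the Psmb8 window holds only a STAT form. Psmb10 and Tapbp, whose windows are not shown, also were not called higher. The Psmb10 window holds 0 matches and the Tapbp window only 2 CCAAT. Absence of the IRF and NF-kB forms was therefore not limited to members that rose. Among all 32851 windows, 23.9% held AANNGAAA, 20.7% the NF-kB form, 8.30% TTCNNNGAA, 20.8% TGACG and 37.4% CCAAT. The motifs were chosen after the windows were seen. A match is a run of letters in this window and not a measured site, and a window without a match says nothing of the factor.

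Tapbp, the tapasin gene, had 51.1, 55.8, 56.1 and 58.5 CPM in BMPR2 DELX 1 to 4, against 56.5, 55.4, 57.2 and 54.7 CPM in ROSA 1 to 4. The groups overlapped, and part of the gene is shared with Zbtb22 on the same strand. Its log2 fold change was -0.02 ± 0.06 (SE, edgeR adjusted p 0.89), with the sign turned under upper-quartile factors (0.02). Of 12 tested genes for peptide loading chaperones and trimming enzymes, 3 were lower, 0 were higher and 9 did not pass. Calr, encoding the lectin chaperone calreticulin, had 1329 ± 62.9 CPM in BMPR2 DELX against 1592 ± 37.1 CPM in ROSA (SD, n = 4 each), and fell by 0.26 on the log2 scale (SE 0.06, edgeR adjusted p 0.029). Pdia3, the disulfide isomerase of the loading complex, fell by 0.23 (SE 0.06, edgeR adjusted p 0.046), and Lnpep, an aminopeptidase of endosomes, fell by 0.32 (SE 0.09, edgeR adjusted p 0.0497). These calls were lost in 6, 8 and 7 of the 8 fits without 1 library, and with upper-quartile factors 1 of the 12 genes was lower. Erap1, which trims peptides in the endoplasmic reticulum, had a log2 fold change of 0.08 ± 0.12 (SE, edgeR adjusted p 0.72). The list median was -0.14.

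**Figure D3:**
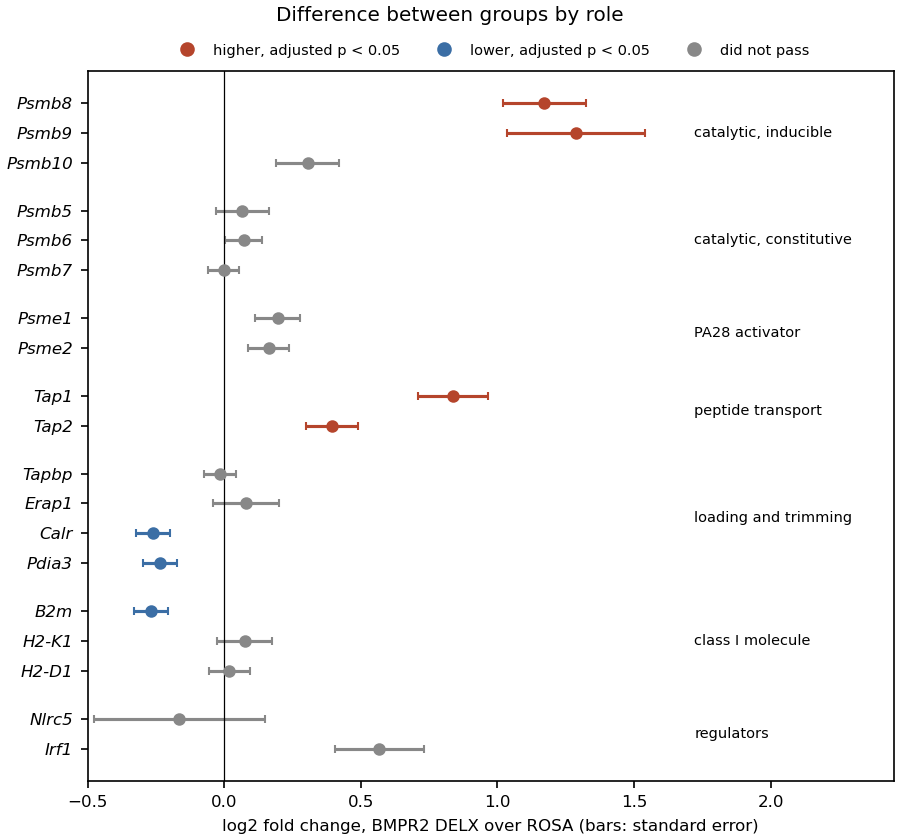
Log2 fold change, BMPR2 DELX over ROSA, and its standard error for members and named genes of the pathway, arranged by role, coloured by the edgeR call. Psmb8, Psmb9, Tap1 and Tap2 are called higher, B2m, Calr and Pdia3 are called lower, and the 3 constitutive catalytic subunits lie between -0.002 and 0.07.

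B2m encodes the light chain shared by class I molecules. It had 233, 215, 205 and 223 CPM in BMPR2 DELX 1 to 4, against 259, 272, 251 and 272 CPM in ROSA 1 to 4. Every BMPR2 DELX library lay below every ROSA library. The log2 fold change was -0.27 ± 0.06 (SE, edgeR adjusted p 0.028), and the call was lost in 6 of the 8 fits without 1 library, where the change ran from -0.29 to -0.24. TMM factors were 1.001 to 1.062 in BMPR2 DELX and 0.918 to 0.993 in ROSA, so scaling widened this gap. On unscaled totals B2m averaged 227 CPM in BMPR2 DELX against 255 CPM in ROSA. With upper-quartile factors the log2 fold change was -0.23 (edgeR adjusted p 0.043).

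The classical heavy chain genes overlapped between the groups. H2-K1 had 88.2, 97.4, 73.5 and 79.9 CPM in BMPR2 DELX 1 to 4, against 70.9, 78.9, 81.8 and 90.2 CPM in ROSA 1 to 4, with a log2 fold change of 0.07 ± 0.10 (SE, edgeR adjusted p 0.68). H2-D1 had 303, 325, 262 and 310 CPM in BMPR2 DELX 1 to 4, against 285, 302, 288 and 310 CPM in ROSA 1 to 4, with a log2 fold change of 0.02 ± 0.07 (SE, edgeR adjusted p 0.90). Heavy chain genes are polymorphic between mouse strains and have close copies. The reference sequence is that of C57BL/6J and the strain of the samples is not stated, and reads that map to several places, 5.34% to 6.08% of all reads, are counted in a line of their own, so these levels are uncertain.

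Nlrc5, the class I transactivator, did not pass the test. It had 3.27, 4.45, 1.70 and 2.68 CPM in BMPR2 DELX 1 to 4, against 2.05, 3.45, 3.36 and 4.70 CPM in ROSA 1 to 4. The spread within each group was wider than the difference between them, and the log2 fold change was -0.16 ± 0.31 (SE, edgeR adjusted p 0.78). Within the groups, Nlrc5 and both heavy chain genes shared their extremes, since BMPR2 DELX 2 was highest and BMPR2 DELX 3 lowest for all 3 genes, and ROSA 4 was highest and ROSA 1 lowest. BMPR2 DELX 3 also had the lowest endothelial marker sum, 316 CPM, while ROSA 1 did not have the lowest of its group. The part of endothelial RNA in these levels was not tested.

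**Figure D4:**
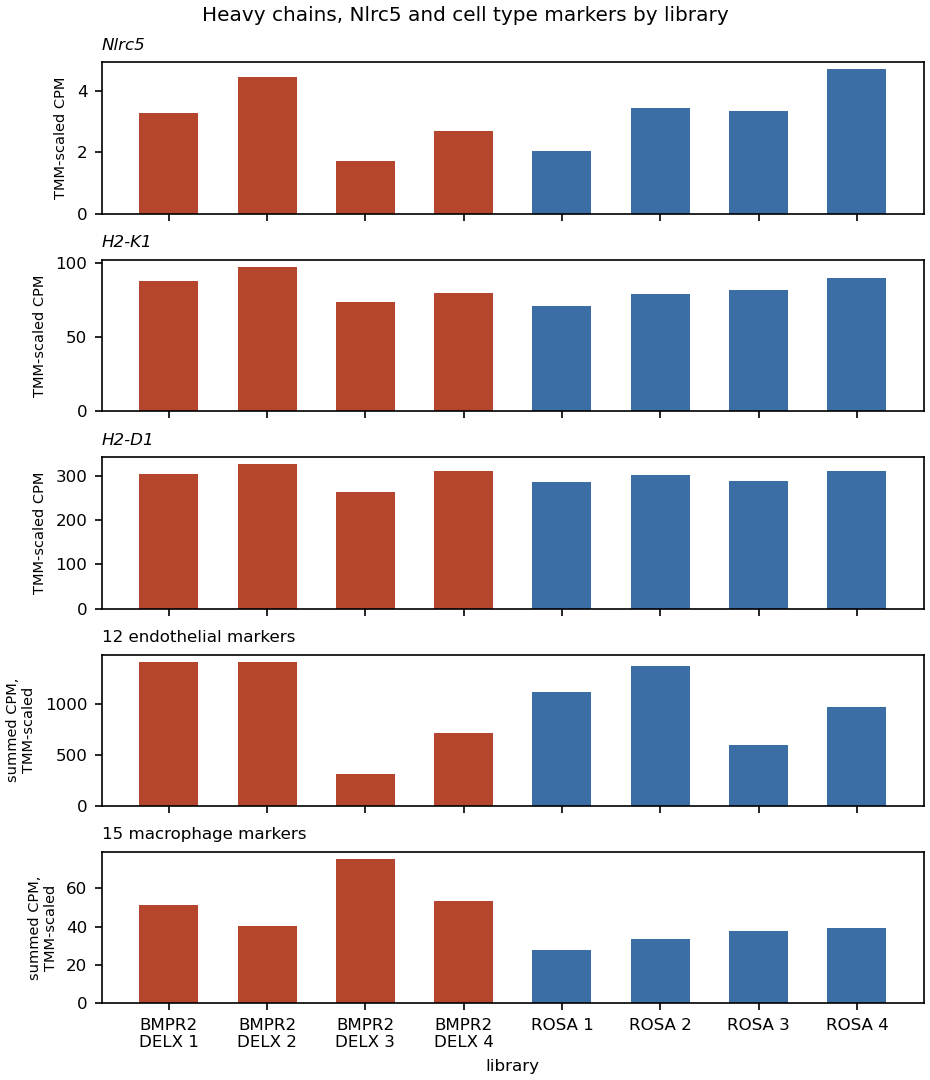
Bars give the TMM-scaled CPM of Nlrc5, H2-K1 and H2-D1 and the TMM-scaled summed CPM of endothelial and of macrophage markers in each library, BMPR2 DELX left of ROSA. Nlrc5 and both heavy chain genes are lowest in BMPR2 DELX 3 and ROSA 1, the endothelial sum is lowest in BMPR2 DELX 3 and ROSA 3, and the macrophage sum is 40.2 to 75.1 CPM in BMPR2 DELX against 27.98 to 39.5 CPM in ROSA.

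Interferon pathway genes included several that rose beside the members. Of 18 tested receptors, kinases, STAT and IRF factors and feedback genes, 4 were higher, 0 were lower and 14 did not pass. Of all genes tested, 3.96% were higher and 5.15% were lower. The list median was 0.31. Irf7, a driver of type I interferon responses, had 4.97 ± 0.504 CPM in BMPR2 DELX against 2.70 ± 0.606 CPM in ROSA (SD, n = 4 each), and rose by 0.88 ± 0.17 (SE, edgeR adjusted p 0.017). Stat2 rose by 0.86 ± 0.17 and Irf9 by 0.60 ± 0.11 (SE, edgeR adjusted p 0.017 and 0.013), and both encode transcription factors of the type I interferon response. Leaving out single libraries ended the call of Irf7 in 1 of 8 fits. Stat2 and Irf9 stayed called without each library in turn. Irf1, a factor that binds class I and immunoproteasome promoters, had a log2 fold change of 0.57 ± 0.16 (SE, edgeR adjusted p 0.057). With upper-quartile factors 6 of the 18 genes were higher. All 8 interferon genes looked at, Ifng and Ifnb1 among them, were at 0 counts in all libraries, within the limit given above for a count of 0.

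The regulatory particle and the activators of the proteasome held no gene called higher. Of 19 subunits of the 19S regulatory particle, 1 was lower, 0 were higher and 18 did not pass, with a median of -0.06. Psmd8 fell by 0.23 (SE 0.06, edgeR adjusted p 0.039), a call lost in 7 of the 8 fits without 1 library and under upper-quartile factors. Psme1 and Psme2, the interferon-inducible PA28 activator, had log2 fold changes of 0.20 ± 0.08 and 0.16 ± 0.08 (SE, edgeR adjusted p 0.16 and 0.21). Of 13 activators, inhibitors and assembly factors, 1 was lower, the assembly chaperone Psmd5 (by 0.29, SE 0.07, edgeR adjusted p 0.026, call lost in 5 of 8 fits without 1 library), 0 were higher and 12 did not pass, with a list median of 0.02.

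Tested heavy chains outside the classical pair had differences of 1 sign that were not called. Of 10 tested nonclassical heavy chain genes, 0 were called by edgeR, DESeq2 or limma voom, 5 had an unadjusted edgeR p below 0.05 (26.3% of all genes tested did), and all 10 had a positive log2 fold change, with TMM, relative log expression and upper-quartile factors alike. Their median was 0.32 and their range 0.05 to 0.59, and close copies make each value uncertain. The groups did not overlap in 2 of the 10, both higher, against 8.32% of all genes tested. Heavy chain genes with too few counts to test went both ways. H2-M9 had 0.0587 to 0.243 CPM in BMPR2 DELX against 0.256 to 0.637 CPM in ROSA. H2-M5 had 0.0891 to 0.183 CPM in BMPR2 DELX against 0.234 to 0.264 CPM in ROSA. H2-Q5, H2-Q10 and H2-T3 had higher means in BMPR2 DELX. Of 9 class I like genes, 1 was called higher, 0 lower, and 8 were not called, with a median of -0.08. Cd1d1, which presents lipids, had 2.86 ± 0.312 CPM in BMPR2 DELX against 1.48 ± 0.158 CPM in ROSA (SD, n = 4 each) and rose by 0.95 ± 0.17 (SE, edgeR adjusted p 0.011), called without each library in turn. Of 5 tested class II genes, 0 were called by edgeR or limma voom, 1 by DESeq2, and 2 had an unadjusted edgeR p below 0.05, with a median of 0.44. Ciita, the class II transactivator, had 0.119 CPM at most. Of 12 factors that act at class I and class II promoters, 1 was lower, Nfkb2 (by 0.36, SE 0.08, edgeR adjusted p 0.020, call lost in 2 of 8 fits without 1 library), 0 were higher and 11 did not pass, with a median of -0.09.

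**Figure D5:**
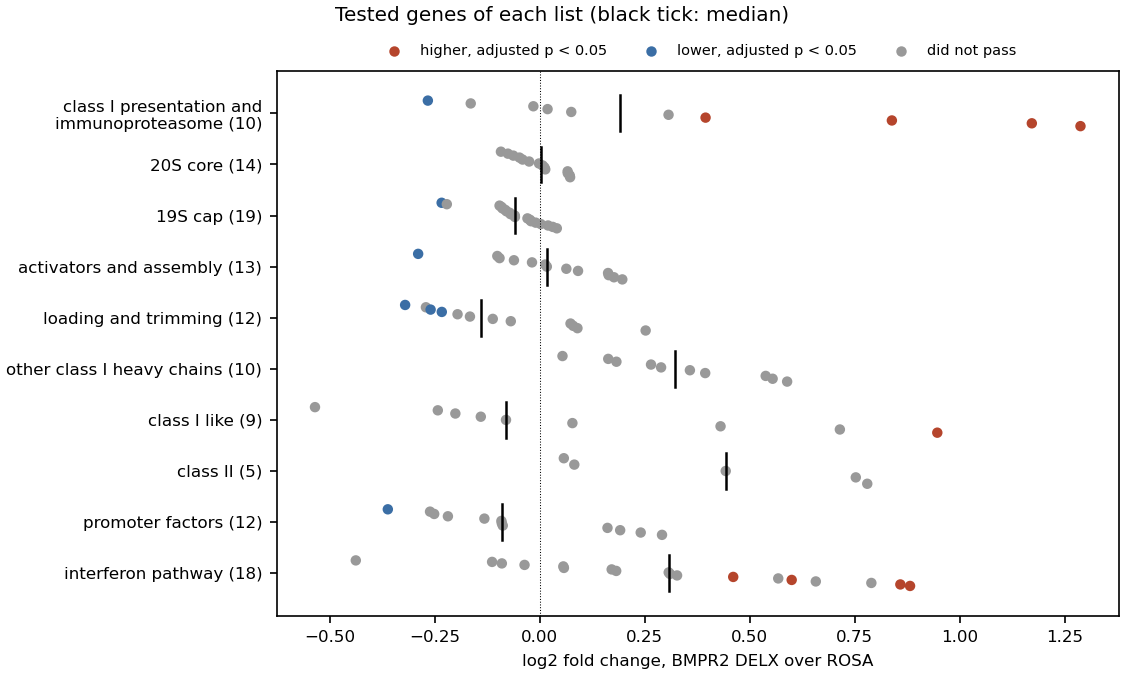
Log2 fold change of BMPR2 DELX over ROSA for each tested gene of the 10 lists, with the number tested in brackets, coloured by the edgeR call, and a black tick at each list's median. The 14 constitutive core subunits lie between -0.09 and 0.07, while the members run from -0.27 to 1.29.

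Markers of immune cells, which express these genes at high level, were low, and the macrophage sum was higher in BMPR2 DELX. Of 15 T and NK cell markers all stayed under 1 CPM, and they summed to 0.581 to 0.719 CPM in BMPR2 DELX against 0.606 to 0.831 CPM in ROSA. All 6 B cell markers and 6 of 7 dendritic cell markers also stayed under 1 CPM. Ptprc, the pan-leukocyte gene, had at most 0.594 CPM. Its mean was lower in BMPR2 DELX, 0.256 CPM against 0.362 CPM in ROSA, with overlap. The 15 macrophage markers summed to 40.2 to 75.1 CPM in BMPR2 DELX against 27.98 to 39.5 CPM in ROSA, apart only by the gap between BMPR2 DELX 2 and ROSA 4, and 10 of the 15 stayed under 1 CPM in all libraries. Of 7 tested macrophage markers 1 was higher, Cd68 (0.72 ± 0.16, SE, edgeR adjusted p 0.024), and 6 did not pass. Cd68 was no longer called when either of 2 libraries was left out. Among those 6 were Mpeg1, with a log2 fold change of 1.88 ± 0.58 (SE, edgeR adjusted p 0.076), and Lyz2, with 1.504 ± 0.45 (SE, edgeR adjusted p 0.074), both larger than that of any member, and Csf1r, the largest part of the sum, with 0.40 ± 0.19 (SE, edgeR adjusted p 0.21). Of the 7 tested, 6 had a positive log2 fold change, and the lowest value was -0.04. C1qa, C1qb, Tyrobp and Adgre1, named after their values were seen, were low and had higher means in BMPR2 DELX. C1qa averaged 0.377 CPM in BMPR2 DELX against 0.0732 CPM in ROSA, C1qb 0.213 CPM in BMPR2 DELX against 0.0199 CPM in ROSA without overlap, and Tyrobp 0.293 CPM in BMPR2 DELX against 0.0296 CPM in ROSA. Adgre1 averaged 0.227 CPM in BMPR2 DELX against 0.0628 CPM in ROSA. The ROSA means of C1qb, Tyrobp and Adgre1 lie below the 0.0687 to 0.104 CPM that 3 counts make, and that of C1qa lies within it. BMPR2 DELX 3, which had the highest Psmb8, had the highest macrophage sum, 75.1 CPM. BMPR2 DELX 2 had the lowest of its group, 40.2 CPM, and its Psmb8 was 8.35 CPM, close to those of BMPR2 DELX 1 and 4. The part of macrophage RNA in the rises of the members was not tested.

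The genes most like the mean of the members within the groups were found by their deviations from the group means, as the Pearson correlation over 8 libraries with the mean standardised log2 CPM of the 10 members. The members did not move alike within the groups. Their pairwise r ran from -0.94 (Psmb9 with Psmb10) to 0.98 (H2-K1 with Nlrc5), so likeness to the mean is not likeness to each member. The leading 5 of 11868 protein-coding genes were Rpl41 (r = 0.99), Coasy (r = 0.97), Tdrd7 (r = 0.97), Gm10260 (r = 0.97) and Nat9 (r = 0.96). The correlations are a description of 8 libraries that share their depth and scaling, chosen as the highest of many. Of these 5, Coasy was called higher (0.41 ± 0.10, SE, edgeR adjusted p 0.041).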

How the data were processed

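Each of the authors' deposited files gives unnormalised read counts by Ensembl gene for 1 library, in the layout of STAR's gene counts, and GRCm38, STAR 2.5.2b and HTSeq are named per the submitters' processing notes. The annotation release and any filter are not given in the sources used here. Column 4 (opposite strand) held 93.4% of strand-assigned reads and was used. The 4 lines that name no gene, 14.7% to 21.95% of the reads of a library, were left out of library sizes and tests. GENCODE M21 supplied symbols, positions and exon lengths (49326 of 49671 IDs found).

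Genes were kept with filterByExpr and tested with edgeR 4.0.16 (quasi-likelihood, robust, TMM factors, R 4.3.3). SE is the fold change over the square root of F. The script was tested on simulated data. No library was left out, and no pair of libraries agreed within sampling noise (chi-square of at least 37.9 per gene). Other settings used DESeq2 1.42.0, limma 3.58.1, other factors, filters and columns, the replicate block and left-out libraries. Named were all members, set partners and regulators (1 is not reported here), up to 4 called genes per list, and the 5 most alike. H2-DMb1, H2-DMb2, the heavy chains too low to test, Cd68, Adipoq and other markers were chosen after their values were seen. The members and lists were chosen with earlier results of these data known. 6 listed symbols were not matched in the annotation.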

Additional observations from a re-analysis of the deposited data

Results flagged for a closer look

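In BMPR2 DELX 3, Psmb8 had 10.5 CPM, far from the other BMPR2 DELX libraries at 8.35 to 8.41 CPM, which were close together. This was the only gap of its kind among 26 groups of 4 values examined (the 10 members and 3 subunit ratios in each group), and chance gives about 1 in 20. Without BMPR2 DELX 3, Psmb8 was still called higher (log2 fold change 1.08, edgeR adjusted p 0.0089).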

How the results depend on the processing

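Psmb8 kept its direction and its call in all settings tried (1.01 to 1.30), Psmb9 in all but the 2 that left out 2 libraries, and Tap1 in all but the one without ROSA 1 and ROSA 2. DESeq2 called 2298 genes against 1355 by edgeR, and upper-quartile factors gave 734 higher and 606 lower against 589 and 766, with 5 members called by each. Without 1 library, 477 to 1266 genes and 3 to 5 members were called. Leaving out 2 libraries was a choice made after seeing the data: without ROSA 1 and ROSA 2, 172 genes and 1 member were called (Tap2 0.36, B2m -0.24), and without BMPR2 DELX 3 and ROSA 3, 631 genes and 2 members (Tap2 0.33, B2m -0.26). Fewer samples entered these fits. A filter at 1 CPM in 4 libraries left Psmb9 untested. Differences near 0 changed sign. Tapbp was 0.023 with upper-quartile factors and -0.043 to 0.029 without 1 library (positive without BMPR2 DELX 1 or ROSA 1), and H2-D1 was -0.022 to 0.079 (negative without BMPR2 DELX 2). Nlrc5 was -0.41 to 0.033 without 1 library (positive without BMPR2 DELX 3 or ROSA 4) and 0.025 without BMPR2 DELX 3 and ROSA 3, and H2-K1 was -0.0062 without ROSA 1 and ROSA 2. The cause of these changes was not tested.

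The labels state no pairing, and the replicate numbers were not taken to pair the samples. The same-number correlations of deviations from the group means were 0.00497, 0.21, 0.245 and 0.0935, all positive. Those of different numbers ran from -0.244 to 0.179. BMPR2 DELX 2 and 3 correlated best with the ROSA library of their own number. BMPR2 DELX 1 correlated best with ROSA 2 (0.179) and BMPR2 DELX 4 with ROSA 3 (0.107). These values do not settle whether the numbers pair the samples. With a replicate block, 1245 genes and 4 members were called, B2m had an edgeR adjusted p of 0.0505, and the paired subunit ratios of 1.12, 1.26 and 0.32 had an exact sign-flip p of 0.125 each, the smallest that 4 pairs allow. Depth limits Psmb9 most, at 10 to 38 counts per library.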
